A study of Homo sapiens with 6 samples.

Results

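CWR22Rv1 cells that had been exposed to apoptozole (APO) were compared with CWR22Rv1 cells given the DMSO vehicle alone. CWR22Rv1 is a human castration-resistant prostate cancer line, and APO is a small molecule that inhibits the ATPase of HSP70 chaperones. The APO culture received 10 µM for 48 h, the DMSO culture received the vehicle for the same 48 h, and neither was kept in enzalutamide. RNA was selected for polyadenylation and sequenced from 1 library per condition. The series also holds a CWR22Rv1 library with 10 µM VER155008 (VER), another HSP70 inhibitor, which shares its DMSO control with APO. It further holds DMSO, APO and VER libraries of C4-2B MDVR, an enzalutamide-resistant derivative of C4-2B that was kept in 20 µM enzalutamide. The labels of all 6 libraries carry the same entries for cell line and cell type, and the groups were taken from the sample titles. With 1 library on each side, no difference below has a replicate check, no spread between cultures can be given and no p-value was computed.

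Each file gives an FPKM value (a fragment number scaled by transcript length and library size) for 60658 gene identifiers. The comparison took the 14772 genes above 1 FPKM in at least 1 of the 2 libraries. Log2 fold changes are APO minus DMSO on the log2(FPKM + 0.1) scale, which understates the changes of genes near the added 0.1. A gene was counted when this difference reached 2-fold, which is 1 on the log2 scale. All 10 markers of luminal prostate epithelium, among them FOXA1, HOXB13 and KRT18, were above 1 FPKM in both libraries. The basal markers KRT5 and TP63, the endothelial PECAM1 and CDH5 and the lymphocyte markers CD3E and MS4A1 were listed at 0. Of 4 basal markers 1 could be compared, KRT15 at 1.54 FPKM with DMSO and 0.563 FPKM with APO. Of 6 fibroblast markers 3 could be compared, LUM at 23.9 and 13.1 FPKM, COL1A1 at 3.32 and 3.78 FPKM and DCN at 1.54 and 0.889 FPKM. None of 5 leukocyte and 3 endothelial markers was above 1 FPKM in either library. The part of other cells in the results was not tested. From the steps between low FPKM values, the APO library was about 1.09 times as deep as the DMSO library. This holds only if the deposited values were scaled by library size alone, and it rests on a peak of 25 among 271 low-valued genes. The number of genes above 1 FPKM was 13972 with DMSO, 13769 with APO and 14176 with VER.

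HSP70 chaperones bind unfolded stretches of new or damaged proteins and, through the ubiquitin ligase STUB1, hand clients to the proteasome. Unfolded protein in the endoplasmic reticulum (ER) is sensed by PERK, IRE1 and ATF6, which direct chaperone genes and, through the translation factor eIF2 alpha, the transcription factor ATF4. ATF4 also responds to amino acid shortage and to mitochondrial stress, and directs genes of amino acid uptake and synthesis. In luminal prostate cancer cells androgens drive secretory genes such as KLK3 and support lipid synthesis.

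Of the 14772 genes, 1597 (10.8%) were at least 2-fold higher with APO and 1938 (13.1%) at least 2-fold lower. These shares are the background against which each group below is read. The median over all genes was -0.01 on the log2 scale. Genes with a mean of at most 2 FPKM passed 2-fold more often, with 20.2% higher and 28.7% lower, than genes with a mean over 10 and up to 100 FPKM, with 7.22% higher and 8.38% lower. Protein-coding genes gave 9.30% higher and 10.9% lower. In 194 of the genes counted, 1 of the 2 libraries lists the gene at 0.

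The libraries differed in the share taken by the mitochondrial chromosome. Its genes held 25.7% of all FPKM with DMSO and 10.4% with APO. The share was 25.7% with VER in the same line, and in C4-2B MDVR cells it was 15.5% with DMSO and 14.8% with APO. FPKM is scaled by library size, so the scale of every other gene depends on how this difference is handled. Rescaling each library to its FPKM outside the mitochondrial chromosome moved the median of all genes to -0.16 and the split of counted genes from 45.2% higher to 34.7% higher. Rescaling to equal total FPKM (TPM) moved the median to 0.11 and the split to 53.7% higher. Setting the median ratio outside the mitochondrial chromosome to 1 left the median at -0.02 and the split at 44.4% higher. The deposited scale thus already lay close to that of the typical gene outside that chromosome. Group medians below are to be read against these shifts. Some counts of group members moved with them too, as given beside several of them.

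All 13 protein-coding genes of the mitochondrial chromosome, which encode subunits of the respiratory chain and of ATP synthase, were at least 2-fold lower with APO. Their median difference was -1.43, and it was 0.14 with VER against the same DMSO library and 0.28 with APO in C4-2B MDVR cells. MT-CO1, the catalytic subunit of cytochrome c oxidase, was at 18710 FPKM with DMSO, 4444 FPKM with APO and 23187 FPKM with VER. MT-ND6, the only mRNA made from the light-strand promoter, differed most, with 219 FPKM with DMSO, 46.8 FPKM with APO and 109 FPKM with VER. MT-ND6 was thus also low with VER, where most of the other mRNAs were near or above their DMSO level. MT-ND2, the mRNA with the smallest difference, went from 4611 to 2212 FPKM, a log2 difference of -1.06. With TPM 11 of the 13 were at least 2-fold lower, and MT-ND2 and MT-ND5 were not. The ribosomal RNAs, whose genes lie next to each other at the start of the heavy-strand transcript, had smaller differences than the mRNAs. Only MT-RNR1 differed from the mRNAs in sign. MT-RNR2 was at 11216 FPKM with DMSO and 7320 FPKM with APO, a difference of -0.62. MT-RNR1 was at 2128 and 2615 FPKM, a difference of 0.30. With VER MT-RNR2 was at 17966 FPKM and MT-RNR1 at 2959 FPKM. In C4-2B MDVR cells MT-RNR1 was at 15829 FPKM with DMSO and 5370 FPKM with APO, a difference of -1.56. MT-RNR2 was at 16635 and 17598 FPKM there. The share of the mitochondrial chromosome counts mRNAs and ribosomal RNAs together, so a similar share in C4-2B MDVR cells does not mean that each gene was level. Levels of ribosomal RNA depend on what passed the poly-A selection.

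**Figure D1:**
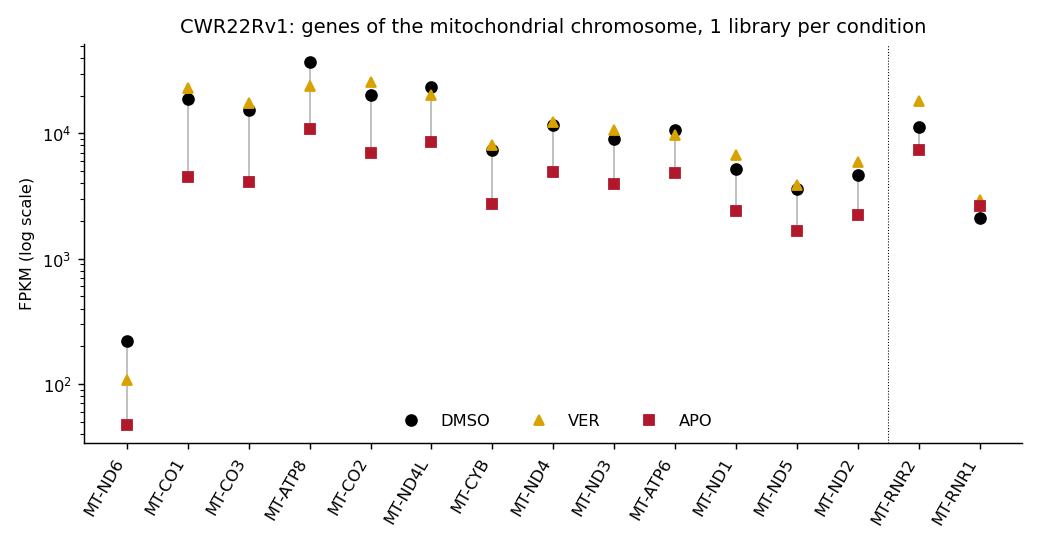
FPKM (log axis) of the 13 protein-coding and 2 ribosomal RNA genes of the mitochondrial chromosome in the CWR22Rv1 libraries with DMSO (circles), VER (triangles) and APO (squares), with 1 library each and grey lines joining DMSO to APO. All 13 mRNAs had their lowest value with APO, whereas MT-RNR1, right of the dotted line, was lowest with DMSO.

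Nuclear genes of the same organelle did not share this size of difference. Of 76 nuclear genes for respiratory chain and ATP synthase subunits, 0 were at least 2-fold higher and 2 at least 2-fold lower, with a median of -0.13. The 2 were ATP5MC1, a subunit of the membrane ring of ATP synthase, at 346 FPKM with DMSO and 119 FPKM with APO, and NDUFB3 of complex I at 72.2 and 28.5 FPKM. Without the mitochondrial chromosome 6 of the 76 were lower. Of 77 mitochondrial ribosomal protein genes, 1 was higher and 1 lower. Among 23 compared genes of mitochondrial transcription and stress, 3 were higher (13.0%, against 10.8% of all genes). A further 3 were lower (13.0%, against 13.1% of all genes), and both shares are near the background. Without the mitochondrial chromosome 2 were higher and 5 lower, and with TPM 4 were higher and 1 lower. POLRMT, the mitochondrial RNA polymerase, was at 39.8 FPKM with DMSO and 19.4 FPKM with APO, a difference of -1.04 that was -0.92 with TPM. TFAM, which packages and activates the mitochondrial genome, was at 19.4 and 17.1 FPKM. The chaperone HSPA9 and the protease LONP1, both of the mitochondrial matrix, were higher, at 151 and 355 FPKM and at 59.97 and 129 FPKM. LONP1 was short of 2-fold without the mitochondrial chromosome. The matrix chaperonin HSPD1 was level at 674 and 675 FPKM as deposited. On the log2 scale it moved to -0.15 without the mitochondrial chromosome and to 0.12 with TPM.

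**Figure D2:**
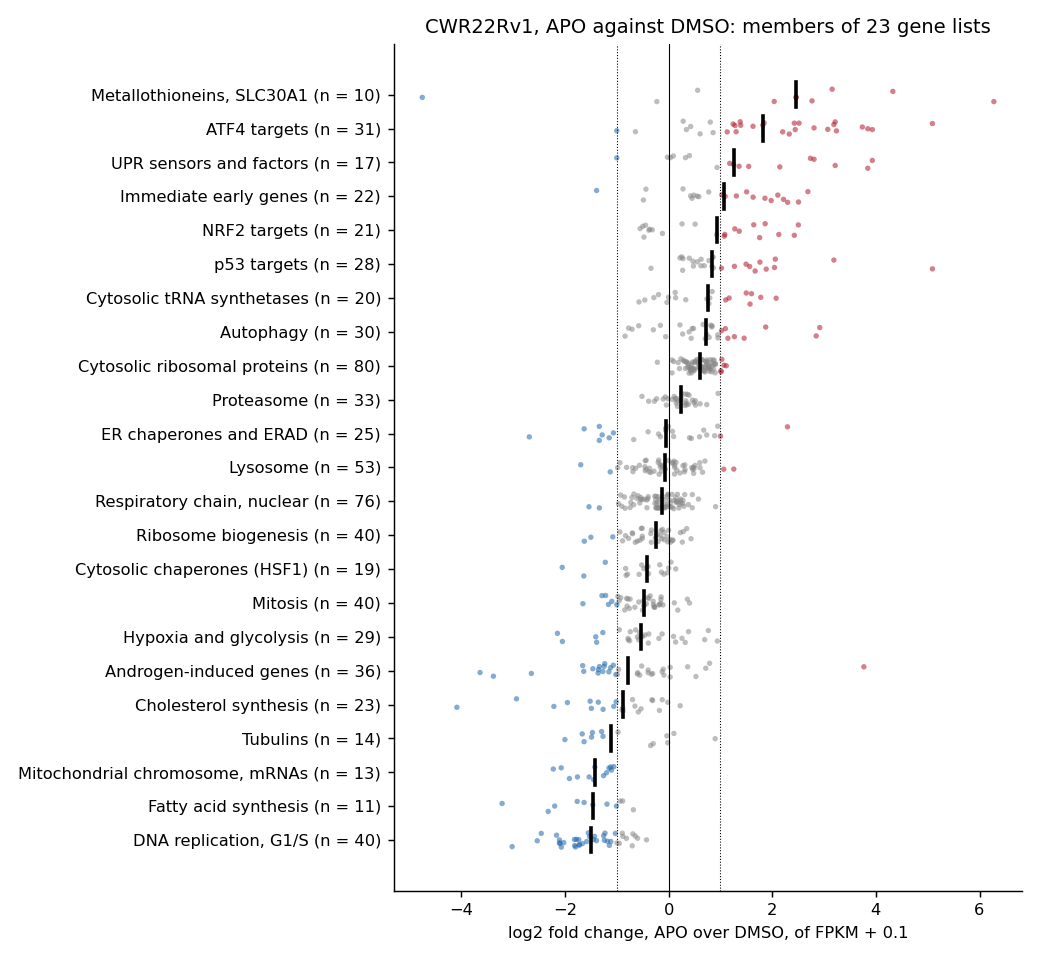
Log2 fold change (APO over DMSO, FPKM + 0.1, horizontal axis) of each compared member of the gene groups named on the vertical axis, with the group median as a black bar and dotted lines at 2-fold. Red points were at least 2-fold higher and blue points at least 2-fold lower. Group medians run from -1.49 for DNA replication to 2.46 for metallothioneins.

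The genes of the inhibited chaperone family lay on both sides, as did genes as a whole. Among 12 compared members of the HSP70 family, 2 (16.7%, against 10.8% of all genes) were at least 2-fold higher. A further 3 (25%, against 13.1% of all genes) were at least 2-fold lower. HSPA1A and HSPA1B, both among the lower genes, encode the stress-inducible HSP70. They are nearly identical, so their reads cannot be assigned with certainty. Summed, they were at 45.0 FPKM with DMSO and 13.8 FPKM with APO, a log2 difference of -1.69, and at 68.7 FPKM with VER. HSPH1, a nucleotide exchange factor of HSP70, was also lower, at 25.7 and 10.95 FPKM. The constitutive HSPA8 was at 713 and 545 FPKM, and at 1210 FPKM with VER. The members that were higher serve organelles. They were HSPA13, a microsomal member, at 29.1 and 102 FPKM, and the mitochondrial HSPA9 already named.

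The wider cytosolic set of HSF1-driven chaperones had 0 of 19 genes at least 2-fold higher, with a median of -0.43. At least 2-fold lower were 3 (15.8%, against 13.1% of all genes), a share near the background. The 3 were HSPA1A, HSPA1B and HSPH1, already counted in the HSP70 family. HSP90AA1 and HSP90AB1, the cytosolic HSP90 genes, were at 452 and 315 FPKM and at 534 and 383 FPKM. Among 18 HSP70 cochaperones DNAJB2 passed 2-fold as deposited, with 16.5 FPKM with DMSO and 35.3 FPKM with APO, and without the mitochondrial chromosome none did, as its difference of 1.09 became 0.94. STUB1 was at 141 and 145 FPKM, with a difference of 0.04 that became -0.11 without the mitochondrial chromosome. Of 33 proteasome genes none reached 2-fold in either direction, and their median was 0.24.

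Among the groups described here, the targets of ATF4 held the largest number of higher genes. Of 31 compared, 23 were at least 2-fold higher and 1 at least 2-fold lower, with a median of 1.82. The same genes had a median of 2.34 with APO in C4-2B MDVR cells and of 0.88 with VER in CWR22Rv1 cells. GDF15 (ENSG00000130513, chromosome 19 of GRCh38 from 18374731 to 18389176 on the plus strand), a secreted stress cytokine, was at 41.0 FPKM with DMSO and 1401 FPKM with APO, a difference of 5.09. DDIT3 (ENSG00000175197, chromosome 12 of GRCh38 from 57516588 to 57521737 on the minus strand), which encodes the pro-apoptotic factor CHOP, was at 49.3 and 753 FPKM, and ATF3, a stress-induced transcription factor, at 16.0 and 232 FPKM. CHAC1, an enzyme that degrades glutathione, was at 2.22 and 30.8 FPKM. With VER these genes were at 971, 125, 26.7 and 12.8 FPKM, so that GDF15 alone of the 4 approached its APO level.

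The ATF4 group covered amino acid supply as well as signalling. ASNS, the asparagine synthetase, was at 105 and 525 FPKM, and SLC3A2, the heavy chain of several amino acid transporters, at 261 and 1496 FPKM. SLC7A11, the cystine transporter, was at 10.4 and 56.5 FPKM. In the serine pathway PHGDH, PSAT1 and PSPH had differences of 1.63, 1.24 and 1.30. The genes of the group below 0 were ATF5, a mitochondrial stress factor, at 61.0 and 30.4 FPKM, which is short of 2-fold with TPM, and ALDH18A1 of proline synthesis, at 71.1 and 45.6 FPKM. Proline synthesis thus showed no shared direction, as PYCR1 of the same pathway was at 87.2 and 158 FPKM.

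Of 20 cytosolic aminoacyl-tRNA synthetases, which charge tRNAs and several of which are ATF4 targets, 7 were at least 2-fold higher and 0 lower. SARS was at 73.8 and 311 FPKM and WARS at 47.9 and 164 FPKM. The synthetases were not uniform, since QARS was at 137 and 91.9 FPKM and VARS at 74.8 and 54.4 FPKM. ATF4 itself was at 263 FPKM with DMSO and 595 FPKM with APO, a difference of 1.18.

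Promoter sequences of the ATF4 targets are shown as a description of the group. RefSeq windows of 300 bases, from 250 before to 50 after the gene start, were at hand for 24 of the 31 genes. The C/EBP-ATF response element (CARE), the composite site bound by ATF4 with C/EBP proteins, was searched on both strands as TGATGNAA. It was found in 5 of the 24 windows (20.8%), those of ASNS, ATF3, CHAC1, SLC3A2 and SLC7A1, against 3.67% of all 27305 windows and 1.55% of those of genes compared here. Of these 5 genes, 4 were at least 2-fold higher, and SLC7A1 was at 32.7 and 49.8 FPKM. The windows of CHAC1 (plus strand, chr15:40953221-40953520) and ATF3 (plus strand, chr1:212565157-212565456) are given 5′ to 3′ on GRCh38.p14, with the letters that match in capitals.
CHAC1: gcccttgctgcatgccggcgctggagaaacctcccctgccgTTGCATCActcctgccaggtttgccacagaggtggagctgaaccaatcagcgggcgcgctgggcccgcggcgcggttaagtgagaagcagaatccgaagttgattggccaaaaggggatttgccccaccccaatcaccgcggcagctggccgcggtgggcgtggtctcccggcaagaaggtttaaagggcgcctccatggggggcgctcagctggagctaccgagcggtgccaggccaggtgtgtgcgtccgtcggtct
ATF3: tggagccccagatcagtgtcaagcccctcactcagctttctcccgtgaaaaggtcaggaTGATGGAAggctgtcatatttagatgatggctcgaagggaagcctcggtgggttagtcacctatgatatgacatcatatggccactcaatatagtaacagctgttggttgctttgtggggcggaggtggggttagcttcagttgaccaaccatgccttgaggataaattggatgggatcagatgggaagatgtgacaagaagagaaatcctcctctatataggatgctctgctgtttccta

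Each motif named here was searched as letters in the windows of its own gene group. A match describes letters and was not tied to binding of a factor in these cells. The groups were drawn up from known target and pathway genes. A share above that of all windows therefore describes the group and not a response to APO.

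Among the sensors and factors of the unfolded protein response, 10 of 17 (58.8%, against 10.8% of all genes) were at least 2-fold higher. At least 2-fold lower was 1, ATF5. ATF3, CEBPB, DDIT3, PPP1R15A and ATF5 are also in the ATF4 group, so the counts of both groups overlap. ERN1, which encodes IRE1, was at 4.07 and 27.7 FPKM, a difference of 2.74. XBP1, whose mRNA IRE1 splices, was at 114 FPKM with DMSO and 271 FPKM with APO, close to the 262 FPKM with VER. ATF6 was at 8.48 and 24.9 FPKM. PPP1R15A, the phosphatase subunit that reverses eIF2 alpha phosphorylation, was at 10.1 and 94.5 FPKM. Gene-level FPKM does not separate spliced from unspliced XBP1.

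The chaperones and degradation genes of the ER, on which the same response acts, split instead. Of 25 genes, 2 (8%, against 10.8% of all genes) were at least 2-fold higher and 7 (28%, against 13.1%) at least 2-fold lower. The median was -0.06, which became 0.06 with TPM. DNAJB9, a cofactor of the ER HSP70, was at 12.3 FPKM with DMSO and 60.5 FPKM with APO. HERPUD1, which organises ER-associated degradation, was at 91.1 and 182 FPKM, and fell short of 2-fold without the mitochondrial chromosome. With TPM 4 of the 25 were higher and 6 lower. HSPA5, the ER HSP70 also known as BiP, was at 437 and 727 FPKM, a difference of 0.73, which is below 2-fold. In C4-2B MDVR cells HSPA5 was at 278 FPKM with DMSO and 2035 FPKM with APO.

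The 7 lower ER genes included the most abundant folding factors. CALR, the lectin chaperone calreticulin, was at 1153 FPKM with DMSO, 474 FPKM with APO and 1441 FPKM with VER. HSP90B1, the ER HSP90, was at 1162, 555 and 1311 FPKM in the same order. Both were thus lower with APO than in either of the other CWR22Rv1 libraries. PDIA4 was at 311 and 123 FPKM, MANF at 268 and 106 FPKM, and SDF2L1 at 183 and 82.6 FPKM. CRELD2, a secreted ER stress protein, was at 230 FPKM with DMSO and 74.2 FPKM with APO, and in C4-2B MDVR cells at 79.9 and 171 FPKM. DERL3 (ENSG00000099958, chromosome 22 of GRCh38 from 23834503 to 23839128 on the minus strand), a component of the degradation channel, differed most, at 29.1 and 4.42 FPKM, a difference of -2.69. The same 25 genes had a median of 0.78 with APO in C4-2B MDVR cells, where 11 were at least 2-fold higher and 0 lower.

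**Figure D3:**
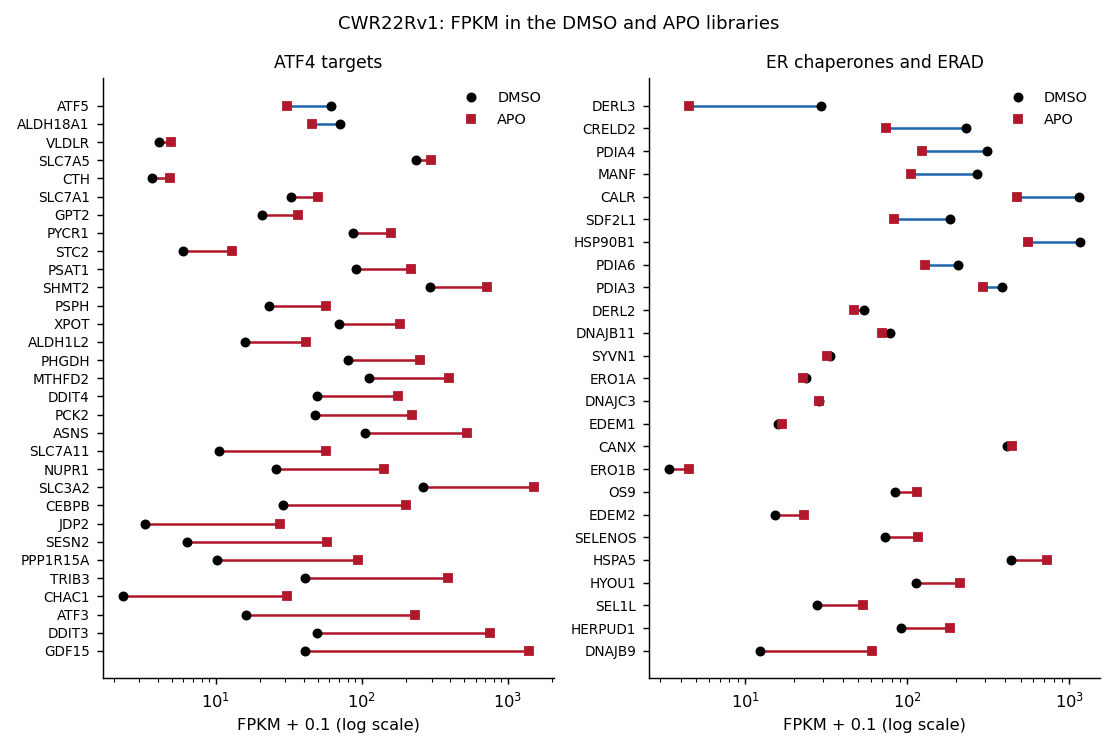
FPKM + 0.1 (log axis) with DMSO (black circles) and APO (red squares) of the 31 compared ATF4 targets, left, and the 25 ER chaperone and degradation genes, right, with 1 library per condition. Lines are red where APO was higher and blue where it was lower. ATF4 targets lay almost all higher with APO, GDF15 most of all, whereas the ER genes divided, with DERL3 at the top and DNAJB9 at the bottom.

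The ER stress response element (ERSE), bound by ATF6 with NF-Y, was searched on both strands as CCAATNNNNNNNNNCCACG to see whether the lower and higher ER genes differ in it. It was found in 6 of 23 windows (26.1%), against 0.0806% of all windows and 0.136% of those of genes compared. The 6 genes were CALR, CRELD2 and HSP90B1, all at least 2-fold lower, and HSPA5, ERO1B and CANX, with differences of 0.73, 0.40 and 0.10. Genes on both sides of 0 therefore held the element, though those above 0 were all under 2-fold. DNAJB9 and HERPUD1, the genes at least 2-fold higher, held no match. MANF, PDIA4 and SDF2L1 among the lower genes held none either. A difference between the sides was not tested. The windows of CRELD2 (plus strand, chr22:49918384-49918683) and HSPA5 (minus strand, chr9:125241294-125241593) are given as an example from each side of 0. They are in GRCh38.p14 from RefSeq, with the match in capitals.
CRELD2: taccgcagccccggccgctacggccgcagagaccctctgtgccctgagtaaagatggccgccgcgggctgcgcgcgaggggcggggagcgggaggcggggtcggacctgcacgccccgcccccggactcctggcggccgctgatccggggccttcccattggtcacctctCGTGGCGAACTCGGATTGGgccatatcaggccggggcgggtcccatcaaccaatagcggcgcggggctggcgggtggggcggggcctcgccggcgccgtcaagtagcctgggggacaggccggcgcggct
HSPA5: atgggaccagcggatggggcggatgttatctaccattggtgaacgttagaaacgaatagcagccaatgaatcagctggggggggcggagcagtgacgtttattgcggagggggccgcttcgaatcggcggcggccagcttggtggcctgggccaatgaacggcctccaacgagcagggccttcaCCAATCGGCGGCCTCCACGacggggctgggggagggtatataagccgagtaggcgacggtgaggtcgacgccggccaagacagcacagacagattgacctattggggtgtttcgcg

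Sterol and fatty acid genes were lower as groups. Of 23 genes of cholesterol synthesis and uptake, 0 were at least 2-fold higher and 10 at least 2-fold lower, with a median of -0.88. The same genes had a median of 0.08 with VER and of 0.02 with APO in C4-2B MDVR cells. INSIG1, which retains the SREBP escort SCAP in the ER, was at 27.6 FPKM with DMSO, 5.86 FPKM with APO and 26.1 FPKM with VER, a difference of -2.22 with APO. SQLE, an early oxygen-dependent step, was at 20.4, 5.19 and 22.1 FPKM in that order, and EBP, a sterol isomerase, at 289, 103 and 278 FPKM. For these 3 genes the VER library was near DMSO. Not every step was low, since CYP51A1 was at 129 and 119 FPKM and PMVK at 49.7 and 58.0 FPKM.

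In fatty acid synthesis 8 of 11 genes were at least 2-fold lower, 0 were higher, and the median was -1.46, beside -1.43 with APO in C4-2B MDVR cells. SREBF1 (ENSG00000072310, chromosome 17 of GRCh38 from 17810399 to 17837002 on the minus strand), the transcription factor that drives these enzymes, was at 59.4 FPKM with DMSO, 6.31 FPKM with APO and 22.1 FPKM with VER. FASN, the fatty acid synthase, was at 110, 21.9 and 65.7 FPKM, ELOVL6 at 53.7, 11.6 and 42.6 FPKM, and SCD at 83.8, 24.6 and 65.1 FPKM. In these 4 genes VER lay between DMSO and APO. SREBF2, the sterol counterpart of SREBF1, was at 60.05, 28.8 and 77.5 FPKM, and its APO value was short of 2-fold with TPM. A sterol element searched as TCACNCCAC on both strands, a motif chosen after the values were seen, was found in 1 of 18 windows of the cholesterol group, that of SREBF2, and in 1.15% of all windows.

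Androgen-induced genes were lower in part. Of 36 compared, 16 were at least 2-fold lower and 1 higher, with a median of -0.78, beside -0.97 with APO in C4-2B MDVR cells. KLK3 (ENSG00000142515, chromosome 19 of GRCh38 from 50854915 to 50860764 on the plus strand), which encodes prostate-specific antigen, was at 30.2 FPKM with DMSO and 2.33 FPKM with APO. KLK2, its neighbour and a related protease, was at 83.4 and 7.91 FPKM, and SLC45A3, a prostate transporter, at 88.2 and 14.0 FPKM. FKBP5, a cochaperone of steroid receptors, was at 111 and 56.0 FPKM, a difference of -0.99 that was -1.14 without the mitochondrial chromosome. NDRG1, PPFIBP2 and KCNN2 were at or slightly above their DMSO level, at 33.9 and 34.6, 3.43 and 4.99, and 4.78 and 6.19 FPKM. The gene counted as higher was TRPM8, listed at 0 with DMSO and at 1.26 FPKM with APO.

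NR3C1, the glucocorticoid receptor, was at 3.53 and 10.3 FPKM, a difference of 1.51, and the epithelial factor ELF3 at 25 and 84.7 FPKM. The lineage factors FOXA1, HOXB13 and SPDEF differed less, to unequal degrees. FOXA1 was at 230 and 193 FPKM and HOXB13 at 80.6 and 51.8 FPKM. SPDEF was at 87.3 and 46.7 FPKM, a difference of -0.90. Without the mitochondrial chromosome SPDEF passed 2-fold, at -1.06. Of the 16 receptor and lineage genes compared, 9 were above 0 and 7 below 0.

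**Figure D4:**
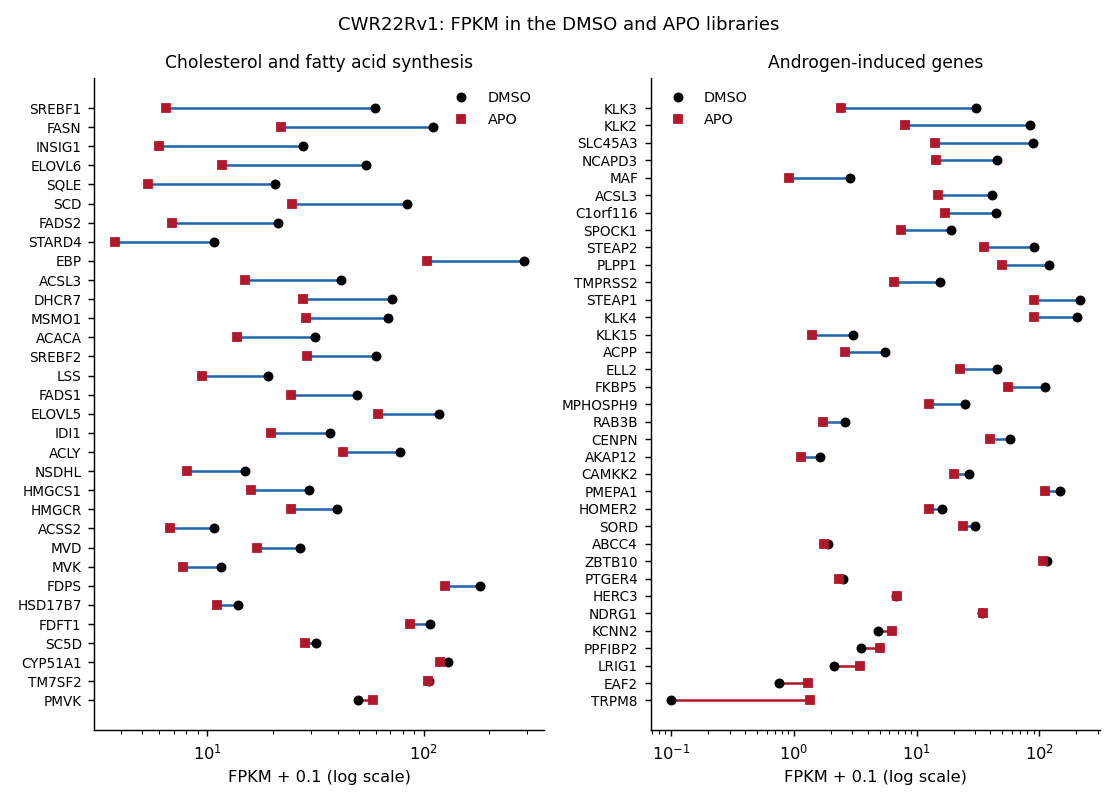
FPKM + 0.1 (log axis) with DMSO (black circles) and APO (red squares) of compared genes of cholesterol and fatty acid synthesis, left, and of androgen-induced genes, right, with 1 library per condition. Blue lines mark lower and red lines higher values with APO. SREBF1, FASN and INSIG1 span the widest distances on the left, and KLK3 and KLK2 the widest among the lower genes on the right.

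Genes of DNA replication and entry into S phase were all on the lower side. Of 40 genes, 30 were at least 2-fold lower and 0 higher, with a median of -1.49, beside -1.45 with APO in C4-2B MDVR cells. UHRF1 (ENSG00000276043, chromosome 19 of GRCh38 from 4903080 to 4962154 on the plus strand), which carries DNA methylation through replication, was at 24.9 FPKM with DMSO and 2.98 FPKM with APO. MCM10, a replication initiation factor, was at 17.8 and 2.99 FPKM, CCNE2, a cyclin of the G1/S step, at 25.6 and 4.57 FPKM, and CLSPN, a checkpoint adaptor, at 11.1 and 2.40 FPKM. The most abundant member PCNA, the sliding clamp of the replication fork, was at 208 and 71.1 FPKM. MCM7, a helicase subunit, was at 201 and 109 FPKM, a difference of -0.88 that was -1.04 without the mitochondrial chromosome.

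Mitotic genes differed less from DMSO. Of 40 genes, 6 (15%, against 13.1% of all genes) were at least 2-fold lower and 0 higher, a share near the background. Their median was -0.48. The 6 were MKI67, AURKB, FOXM1, ANLN, KIF14 and CCNA2. Without the mitochondrial chromosome 10 were lower (25%, against 16.7% of all genes). With TPM 4 were lower (10%, against 11.4% of all genes), KIF14 and CCNA2 falling short. MKI67, the proliferation antigen, was at 27.4 and 8.64 FPKM and the kinase AURKB at 69.8 and 28.6 FPKM. UBE2C, a ubiquitin carrier of the anaphase-promoting complex, was at 98.2 FPKM with DMSO and 88.5 FPKM with APO, and CDC20, an activator of that complex, at 102 and 115 FPKM. With VER, against the same DMSO library, the mitotic genes had a median of -1.17 and the replication genes a median of -0.89, and UBE2C was at 44.8 FPKM and CDC20 at 25.8 FPKM.

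The promoters of the replication genes were searched for an E2F site, written as TTTCCCGC or TTTGGCGC on both strands, a motif chosen after the values were seen. It was found in 19 of 36 windows (52.8%), against 2.31% of all windows and 3.73% of those of genes compared. The group is made of known replication and G1/S genes, among them E2F1 and E2F2, so this share describes the group. Whether members with and without a match differed with APO was not tested. The windows of UHRF1 (plus strand, chr19:4909251-4909550) and MCM6 (minus strand, chr2:135876394-135876693), a helicase subunit at a difference of -1.66 with 2 matches, are given from RefSeq in GRCh38.p14 with the matches in capitals.
UHRF1: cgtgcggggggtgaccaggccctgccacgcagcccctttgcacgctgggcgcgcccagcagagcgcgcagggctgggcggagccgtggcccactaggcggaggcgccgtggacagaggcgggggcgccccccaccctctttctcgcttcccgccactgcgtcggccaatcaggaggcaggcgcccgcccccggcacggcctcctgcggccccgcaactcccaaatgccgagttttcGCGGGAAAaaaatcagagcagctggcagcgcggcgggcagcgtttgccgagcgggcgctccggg
MCM6: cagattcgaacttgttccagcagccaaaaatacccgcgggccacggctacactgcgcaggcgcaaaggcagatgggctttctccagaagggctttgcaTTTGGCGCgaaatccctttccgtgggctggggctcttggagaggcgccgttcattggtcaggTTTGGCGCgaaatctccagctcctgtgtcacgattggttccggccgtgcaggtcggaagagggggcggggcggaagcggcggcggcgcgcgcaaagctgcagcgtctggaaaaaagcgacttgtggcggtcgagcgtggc

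Growth arrest and cell death genes were higher in part. Of 28 p53 targets, 11 were at least 2-fold higher and 0 lower, with a median of 0.84, beside 1.43 with VER. CDKN1A, the cyclin-dependent kinase inhibitor p21, was at 41.3 FPKM with DMSO, 172 FPKM with APO and 359 FPKM with VER. GDF15 and SESN2, the members with the largest differences, are also in the ATF4 group. TNFRSF10B, a death receptor, was at 44.7 and 165 FPKM. MDM2 and BAX, which p53 controls directly, were at 54.0 and 83.4 FPKM and at 65.2 and 75.8 FPKM. In the BCL2 family 3 of 15 genes (20%, against 10.8% of all genes) were at least 2-fold higher, BBC3, PMAIP1 and HRK. At least 2-fold lower was 1 (6.67%, against 13.1% of all genes), BID. Without the mitochondrial chromosome 2 were lower, as BIK went from -0.98 to -1.14. Pro-apoptotic genes thus stood on both sides. HRK was low in both libraries, at 0.236 and 2.02 FPKM, and BID was at 2.79 and 1.14 FPKM. BBC3 was at 18.2 and 62.0 FPKM.

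Metallothioneins, which bind zinc and copper, were higher as a family. Of 10 genes compared, among them the zinc exporter SLC30A1, 7 were at least 2-fold higher and 1 lower, with a median of 2.46. MT1G was at 52.8 FPKM with DMSO and 1062 FPKM with APO, MT1X at 71.4 and 636 FPKM, and MT2A at 144 and 792 FPKM. With VER they were at 540, 250 and 411 FPKM, between DMSO and APO. MT1H was listed at 0 with DMSO and at 7.65 FPKM with APO, and MT3 was at 2.60 FPKM and listed at 0. The family members are close copies that can share reads, and the values of the smaller ones are uncertain. SLC30A1, which is no metallothionein, was at 9.78 and 14.5 FPKM. The metal response element, searched as TGCNCNC on both strands, was found in all 4 windows at hand, and in 63.7% of the windows of genes compared.

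Of 21 NRF2 targets, which serve glutathione, thioredoxin and iron handling, 10 were at least 2-fold higher and 0 lower. HMOX1, the heme oxygenase, was at 3.89 and 22.5 FPKM and NQO1 at 21.2 and 71.9 FPKM. FTH1, the ferritin heavy chain and the most abundant member, was at 707 FPKM with DMSO, 2570 FPKM with APO and 701 FPKM with VER, and it has pseudogenes that can share its reads. Members of the pentose phosphate route stood on the other side, with TKT at 375 and 256 FPKM and PGD at 79.7 and 56.4 FPKM. Of 11 polyamine genes 2 (18.2%, against 10.8% of all genes) were at least 2-fold higher, SAT1 and SMOX. SAT1, which acetylates polyamines, was at 21.9 and 124 FPKM.

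Autophagy genes were higher without a matching difference in the lysosome. Of 30 autophagy genes, 8 were at least 2-fold higher and 0 lower, with a median of 0.72. GABARAPL1 and MAP1LC3B, which coat the forming autophagosome, were at 2.50 and 19.5 FPKM and at 21.8 and 158 FPKM. The cargo receptor SQSTM1 was at 73.9 and 271 FPKM. Of 53 lysosomal genes, 2 were higher and 2 lower, and 1 and 4 without the mitochondrial chromosome, with a median of -0.07 that became 0.05 with TPM. GLA, the alpha-galactosidase, was at 46.7 and 14.3 FPKM and NEU1, the sialidase, at 35.3 and 84.6 FPKM.

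The immediate early genes, which answer to growth factor and stress kinases, were higher in part. Of 22 compared, 12 were at least 2-fold higher, 9 were under 2-fold and 1 was at least 2-fold lower, with a median of 1.06, beside -0.14 with VER and 0.26 with APO in C4-2B MDVR cells. KLF4 was at 6.96 and 40.0 FPKM, FOS at 2.86 and 14.4 FPKM and JUN at 16.1 and 75.2 FPKM. With VER these were at 11.3, 2.91 and 14.3 FPKM. The lower gene was MYC, the growth-promoting factor, at 118 FPKM with DMSO and 44.8 FPKM with APO. NR4A1 and ZFP36 were also below 0, at 11.8 and 8.69 FPKM and at 14.99 and 10.7 FPKM. AREG, a ligand of the EGF receptor, was at 1.24 FPKM with DMSO, 51.8 FPKM with APO and 4.997 FPKM with VER.

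Few genes of the protein synthesis machinery reached 2-fold. Of 80 cytosolic ribosomal protein genes, 79 were above 0 and 5 (6.25%, against 10.8% of all genes) were at least 2-fold higher, with a median of 0.61. Without the mitochondrial chromosome none of the 80 reached 2-fold and the median was 0.46, and with TPM 8 did. RPS18, the most abundant of these 5, was at 2764 and 5575 FPKM. Host genes of small nucleolar RNAs, which are mostly noncoding, went both ways. GAS5 was at 446 and 1443 FPKM and ZFAS1 at 60.2 and 288 FPKM, while SNHG4 was at 17.0 and 3.95 FPKM. Of 25 hosts 7 were higher (28%, against 10.8% of all genes) and 5 lower (20%, against 13.1%). Of 40 ribosome biogenesis genes 0 were higher and 3 (7.5%, against 13.1% of all genes) lower, NOP56 at 231 and 74.6 FPKM, NOP2 at 60.4 and 21.3 FPKM, and TCOF1. Without the mitochondrial chromosome 5 of the 40 were lower. The splicing genes had 1 of 75 higher (1.33%, against 10.8% of all genes) and 4 lower (5.33%, against 13.1%), and with TPM 2 lower.

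Tubulin genes were lower in part. Of 14 tubulin genes compared, 7 were at least 2-fold lower and 0 higher, with a median of -1.12. TUBA1B, the most abundant, was at 1375 FPKM with DMSO, 444 FPKM with APO and 466 FPKM with VER, and TUBB4B at 516, 184 and 193 FPKM. Both inhibitor libraries were thus lower for these genes, and they share the DMSO library. TUBA1A and TUBA1C were level, at 77.6 and 83.3 FPKM and at 256 and 253 FPKM, and tubulins are similar enough to share reads. Of 29 genes of glycolysis and the hypoxia response, 5 (17.2%, against 13.1% of all genes) were at least 2-fold lower and 0 higher, a share near the background. PFKFB3 and PFKFB4, which set the level of the glycolytic activator fructose 2,6-bisphosphate, were at 20.0 and 4.43 FPKM and at 10.4 and 2.43 FPKM.

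Other groups gave mixed or small counts. Of 18 interferon-induced genes 6 were higher (33.3%, against 10.8% of all genes) and 3 lower (16.7%, against 13.1%). ISG20, an RNA exonuclease, was at 6.32 and 66.0 FPKM and OAS3 at 6.99 and 1.41 FPKM. Of 26 compared histone genes, whose replicative transcripts largely lack poly-A tails, 8 were higher (30.8%) and 3 lower (11.5%). Of 19 adhesion genes 4 were higher (21.1%) and 2 lower (10.5%). The tight junction gene CLDN7 was at 391 and 874 FPKM and CLDN4 at 237 and 102 FPKM. Of 12 genes of MHC class I presentation 0 were higher and 1, TAP2, lower, and of 20 NF-kappa-B and cytokine genes only 5 could be compared, with RELB higher. Of 10 neuroendocrine genes 2 were higher (20%) and 1 lower (10%). CALCA, which encodes calcitonin and the peptide CGRP, was at 2.50 FPKM with DMSO, 145 FPKM with APO and 45.0 FPKM with VER, whereas CHGA was at 10.9 and 8.64 FPKM.

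The 15 highest and 15 lowest genes above 10 FPKM in either library were set by the fold change itself, and their values describe the ends of the range. Protein-coding genes at the upper end were USP41, LAMP3, CALCA, SPX, FIBIN, AREG, GDF15 and GPR1. USP41 is a near copy of USP18 and may share its reads. LAMP3, a lysosome-associated protein induced in the unfolded protein response, was at 0.362 and 29.4 FPKM. At the lower end they included MGLL, PLEKHG2, CNIH2, RNF207 and KLK3. MGLL (ENSG00000074416, chromosome 3 of GRCh38 from 127689062 to 128052190 on the minus strand), the lipase that cleaves monoglycerides, was at 89.7 FPKM with DMSO, 2.33 FPKM with APO and 1.76 FPKM with VER. PLEKHG2 was at 53.6, 2.98 and 2.39 FPKM. Both were low in both inhibitor libraries against their common control, and in C4-2B MDVR cells MGLL was at 8.16 FPKM with DMSO and 7.51 FPKM with APO. At both ends together, 16 genes were noncoding RNAs and pseudogenes, most of them listed at 0 in 1 of the 2 libraries. RMRP, the RNA of RNase MRP, was at 57.9 FPKM with DMSO and 0.00107 FPKM with APO. Such short RNAs are poorly held by poly-A selection, and among genes with at most 1000 exonic bases 24.4% were higher and 28.1% lower.

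**Figure D5:**
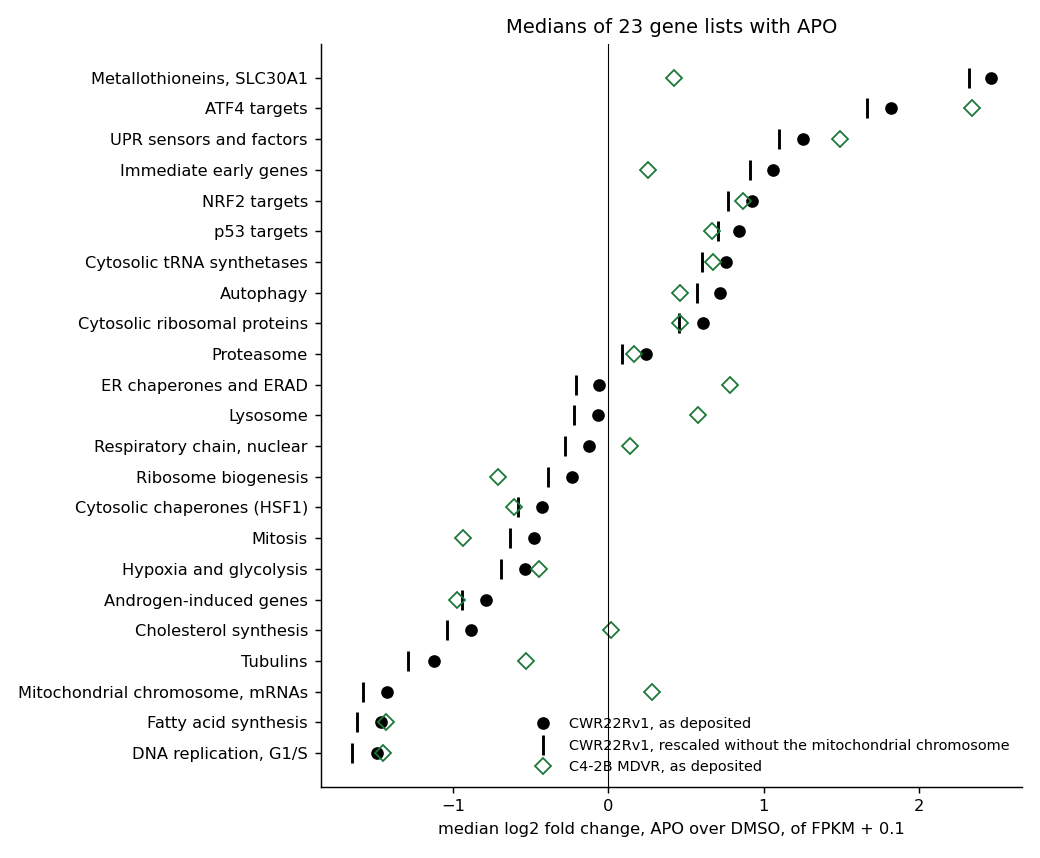
Median log2 fold change (APO over DMSO, FPKM + 0.1) of the 23 gene groups named on the vertical axis in CWR22Rv1 cells as deposited (black circles) and after rescaling without the mitochondrial chromosome (black ticks), and of the same genes in C4-2B MDVR cells (green diamonds). The mitochondrial mRNAs stood at -1.43 and 0.28 and the cholesterol genes at -0.88 and 0.02 in the 2 lines, whereas DNA replication stood at -1.49 and -1.45.

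Set beside APO in C4-2B MDVR cells, several groups had medians close to those in CWR22Rv1 cells and others did not, as the plot of group medians shows. The difference between the lines was not tested, since each condition has 1 library and the lines also differed in enzalutamide. Among the groups plotted, medians on opposite sides of 0 were those of the mitochondrial mRNAs, the cholesterol genes, the ER chaperones, the lysosome and the nuclear respiratory chain. The last 3 lay between -0.13 and -0.06 in CWR22Rv1 cells. Groups not plotted that did the same include the snoRNA hosts, at 0.43 and -0.50, the receptors and lineage factors, at 0.14 and -0.51, MHC class I, at -0.13 and 0.58, and the histones, at 0.28 and -0.25. For metallothioneins the medians were 2.46 and 0.42. MT1G, at 1062 FPKM with APO in CWR22Rv1 cells, was listed at 0 with DMSO and at 1.31 FPKM with APO in C4-2B MDVR cells, whereas MT2A was at 100 and 511 FPKM there.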

How the data were processed

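RNA of CWR22Rv1 cells given DMSO or 10 µM APO for 48 h was compared, with 1 library per condition. The authors aligned paired-end reads and deposited each library as a table of FPKM by gene. The submitters' processing notes name HISAT, Cufflinks, Cuffnorm and GRCh38, and the paper also names StringTie and TopHat. The labels give a stranded poly-A kit (KAPA) and the paper another (TruSeq), and whether counting used the strand is not given in the sources used here. Without it, reads of antisense or overlapping genes cannot be told apart.

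The deposited FPKM values hold no read totals, so depth could only be estimated as a ratio between libraries and no counting error is given. Symbols and gene coordinates came from GENCODE 29, which held 57047 of the 60658 identifiers. Differences of log2(FPKM + 0.1) were taken for genes above 1 FPKM in at least 1 of the 2 libraries and counted at 2-fold. The study counted at 1.2-fold, which is an alternative here. No test, replicate check or set test was possible or run. The calculation was tested on simulated data.

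The comparison, the gene groups and the motifs were chosen with earlier results of these data known. Genes named were the 15 highest and the 15 lowest with at least 10 FPKM in either library, the up to 4 members of each group with the largest difference, its most abundant member, the genes of the mitochondrial chromosome and a fixed set of chaperone, stress and receptor genes. Any other gene named was chosen after its values were seen. A few genes that these rules would name are not reported here, though the group counts and medians include them. Promoter windows were RefSeq's for GRCh38.p14. Python 3.11.15, pandas 2.3.3, numpy 2.4.6 and matplotlib 3.10.9 were used.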

Additional observations from a re-analysis of the deposited data

Results flagged for a closer look

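The results below had opposite signs with APO in the CWR22Rv1 and C4-2B MDVR lines, in each line from 1 library per condition. A group was listed when its median reached 2-fold in CWR22Rv1 cells and 1.2-fold in C4-2B MDVR cells. A named gene was listed when it reached 2-fold in both lines and was detected in each of those libraries. Other differences of opposite sign are not listed. The difference between the lines was not tested, and line and enzalutamide in the medium cannot be told apart.

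The median of the 13 mRNAs of the mitochondrial chromosome was -1.43 in CWR22Rv1 cells and 0.28 in C4-2B MDVR cells. CRELD2 differed by -1.63 in CWR22Rv1 cells and by 1.10 in C4-2B MDVR cells. AC244669.1, a transcribed pseudogene, was at 0.396 FPKM with DMSO and 296 FPKM with APO in CWR22Rv1 cells, a difference of 9.22. With VER it was at 0.875 FPKM there. In C4-2B MDVR cells it was at 133 and 1.14 FPKM, a difference of -6.75. An unprocessed pseudogene is a copy of another gene and may share its reads, so these values are uncertain. The part of shared reads was not tested. C8orf37-AS1, a long noncoding RNA, was at 0.730 and 39.8 FPKM in CWR22Rv1 cells, a difference of 5.59. In C4-2B MDVR cells it was at 0.640 and 0.200 FPKM, a difference of -1.30. Both C4-2B MDVR values lie below the 1 FPKM filter, so the sign there rests on values near the floor.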

How the results depend on the processing

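No paired analysis was possible because each condition has 1 library. For the same reason no library could be left out. The counts depended on the fold and on the filter. At 1.2-fold 5376 genes were higher and 5566 lower, at 1.5-fold 3279 and 3576, and at 4-fold 427 and 495. With FPKM above 0.1, or above 0, in at least 1 library the counts were 2980 and 3623, with FPKM above 1 in both libraries 1038 and 1192, and with FPKM above 10 in at least 1 library 682 and 755. A pseudocount of 1 FPKM gave 1287 lower genes. Counts within 1.5 times of the reported ones came from the rescalings, from a pseudocount of 0.01, from protein-coding genes and from genes above 0 in both libraries, an alternative added after seeing the data. Of the group medians, that of the NRF2 targets was 1.04 with TPM and 1.07 above 10 FPKM. The median of cholesterol synthesis was -1.04 without the mitochondrial chromosome, and that of androgen-induced genes -1.15 above 10 FPKM. The immediate early median was 0.91 without the mitochondrial chromosome, 0.96 with a pseudocount of 1 and 0.90 with FPKM above 0.1 or above 0. The tubulin median was -0.71 with a pseudocount of 1, -0.98 with FPKM above 0.1 or above 0 and -0.66 above 1 FPKM in both libraries. No group median that had passed 2-fold changed sign. Medians closer to 0 did so with a rescaling, and those the text gives a direction for are named there. The cause of these shifts beyond the alternatives' own construction was not tested. Depth could only be estimated as a ratio between libraries, which limits what can be said of low FPKM values.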
